A study of Homo sapiens with 18 samples.

Results

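The genes described here are the heat shock proteins and their J-domain partners, measured by RNA sequencing in 3 derived lines of U2OS, an established human osteosarcoma line. Members were the protein-coding genes of the deposited count table whose symbol is HSPA, HSPB, DNAJA, DNAJB or DNAJC followed by a number and at most 1 letter, together with HSP90AA1, HSP90AB1, HSP90B1, HSPD1, HSPE1 and HSPH1. This gave 70 of the 25296 genes in the table, chosen by name and not by their values. The overexpression lines carried the MigR1 vector without an insert (EV), DNMT3A in its wild-type form (WT) or a DNMT3A mutant (MUT), DNMT3A being an enzyme that methylates DNA. Series text and sample labels disagree on the mutation (R882C and R882H), and it is therefore only named as mutant. Per line there were 3 biological replicates without drug and 3 after 24 h in 10 µM cytarabine, a nucleoside drug that blocks DNA replication once incorporated, which makes 6 groups. The labels say untreated for the groups without drug, and the series text speaks of a vehicle control. All groups therefore share the U2OS background and a vector, and neither the promoter of the vector nor whether a line is 1 clone is given in the sources used here.

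Molecular chaperones bind unfolded proteins and help them to reach or regain their native shape. HSP70 proteins (the HSPA genes) hold and release a client in cycles driven by ATP. J-domain proteins (the DNAJ genes) bring clients and switch on the ATPase, and nucleotide exchange factors such as the HSP110 proteins reset it. HSP90 proteins act later on clients such as kinases and steroid receptors, the HSPD1 and HSPE1 chaperonin folds proteins inside mitochondria, and the small heat shock proteins (the HSPB genes) hold aggregation-prone proteins without ATP. Proteotoxic stress raises many of these genes through the transcription factor HSF1, which binds heat shock elements. Unfolded protein in the endoplasmic reticulum (ER) raises the ER chaperones through ATF6 and XBP1, and ATF6 acts with NF-Y at ER stress response elements.

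Promoter sequences of the genes that carry these elements are shown first, because members with the same element are compared after cytarabine. Sequences are from the RefSeq promoter table of GRCh38.p14, in which 63 of the 70 members had an entry, and 250 bases before each RefSeq start were searched on both strands. The heat shock element was searched as GAA, any 2 bases, TTC, any 2 bases and GAA, or the reverse complement of this. It was present in 0.441% of all 35116 promoters. Counted by gene, it was present in 0.557% of 27305 genes and in 6 of the 63 members (9.52%). Each window is printed 5′ to 3′ on the strand of its gene, with the match in capitals. The windows lie at chr1:161524416-161524528 (HSPA6, plus strand), chr2:197500062-197500090 (HSPD1, minus strand), chr6:44247728-44247865 (HSP90AB1, plus strand), chr7:157336823-157336935 (DNAJB6, plus strand), chr14:102087070-102087182 (HSP90AA1, minus strand) and, for the matches of HSPA8 on the minus strand, chr11:123062353-123062386 and chr11:123062171-123062199.
HSPA6: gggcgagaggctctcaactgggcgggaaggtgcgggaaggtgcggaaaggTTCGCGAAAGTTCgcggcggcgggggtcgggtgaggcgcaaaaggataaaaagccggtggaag
HSPD1: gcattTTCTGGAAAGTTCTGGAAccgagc
HSP90AB1: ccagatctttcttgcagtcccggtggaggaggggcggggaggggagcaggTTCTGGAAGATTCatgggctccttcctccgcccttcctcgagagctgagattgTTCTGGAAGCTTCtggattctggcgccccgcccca
DNAJB6: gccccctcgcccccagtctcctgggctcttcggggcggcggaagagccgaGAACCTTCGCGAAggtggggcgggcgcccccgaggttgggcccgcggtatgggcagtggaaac
HSP90AA1: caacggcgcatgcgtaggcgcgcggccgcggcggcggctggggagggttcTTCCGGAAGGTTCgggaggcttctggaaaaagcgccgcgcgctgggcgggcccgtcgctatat
HSPA8 upstream match: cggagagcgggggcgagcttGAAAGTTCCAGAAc
HSPA8 downstream match: cgggccccTTCTGGAAGGTTCtaagatag
HSPD1 and HSP90AB1 each hold 2 matches, which overlap in HSPD1. The first match lies 74 bases before the start in HSPA6, 245 in HSPD1, 165 in HSP90AB1, 131 in DNAJB6, 88 in HSP90AA1, and 230 and 55 in HSPA8. The HSPD1 window and the downstream HSPA8 window lie in an annotated untranslated region. The HSPD1 promoter runs into HSPE1 on the other strand.

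The ER stress response element was searched as CCAAT, any 9 bases and CCACG, or the reverse complement of this. It was present in 0.0740% of promoters. Counted by gene, it was present in 0.0916% of genes and, among the 63 members, in HSPA5 and HSP90B1. The element contains the CCAAT box, which alone was present in 32.0% of promoters, in 37.0% of genes and in 26 of the 63 members (41.3%). The windows are chr9:125241383-125241459 on the minus strand for HSPA5 and, for HSP90B1 on the plus strand, chr12:103930211-103930239 and chr12:103930316-103930344.
HSPA5: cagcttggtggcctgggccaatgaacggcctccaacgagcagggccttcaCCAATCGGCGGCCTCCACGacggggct
HSP90B1 upstream match: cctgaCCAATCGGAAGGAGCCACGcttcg
HSP90B1 downstream match: gggtgCGTGGTGCGGCGCGATTGGtgggt
The matches start 66 bases before the RefSeq start in HSPA5 and 194 and 89 bases before it in HSP90B1. Both HSP90B1 windows lie in an annotated untranslated region. The second such element, ATTGG, any 1 base and CCACG or the reverse complement, was found in no member promoter of the table and in 0.0513% of all promoters. A match is a string of letters and was not tested for binding.

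Library totals ran from 15.4 to 21.9 M estimated counts, M standing for 1000 times 1000. DNMT3A, which checks the labels, stood at 26.9 ± 0.662 CPM (counts per M of the scaled library; SD, n = 3) in untreated EV, 133 ± 5.17 in untreated WT and 456 ± 185 in untreated MUT, and the groups with cytarabine kept the same order. The 3 untreated MUT libraries held 499.7, 615 and 254 CPM, so this group was uneven. Its biological coefficient of variation over all genes was 0.216, against 0.0397 and 0.0398 in untreated EV and WT and 0.0486 to 0.132 in the treated groups. VIM, FN1, SPARC and RUNX2, markers of a mesenchymal bone line, had group means of at least 36.0 CPM, while COL1A2 had 0.458 to 7.97. PTPRC, EPCAM, CDH1, ALB and PECAM1, which mark other cell types, had at most 5.18 CPM in any library.

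Of the 70 members, 64 were abundant enough to be tested. DNAJB13, DNAJC5G, HSPA2, HSPB3, HSPB7 and HSPB9 were left out with at most 10 counts in any library. DNAJC12 entered only through the treated libraries, so its difference was fixed by the filter. Levels of different genes are compared only per kb of their canonical transcript. By the mean of the 18 libraries HSPB1 led with 1389 CPM per kb, followed by HSP90AB1 with 1047, HSPA8 with 807, HSPE1 with 653, HSP90AA1 with 488, HSPD1 with 434 and HSP90B1 with 272. HSPA1A and HSPA1B, HSPA8, the HSP90 genes, HSPD1 and HSPE1 have near-identical copies or pseudogenes, and how reads matching several genes were counted is not given in the sources used here, so their split is uncertain. The same holds for the 25 members that overlap a gene on the other strand and the 14 that overlap one on their own strand, since the use of strand is not given either.

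Cytarabine lowered several of the most abundant cytosolic and mitochondrial chaperones in all 3 lines and raised a group of mostly scarcer ones, while HSPB1, the most abundant per kb, did not pass the test in EV. The falls included HSP90AB1, HSP90AA1, HSPA8, HSPA9, HSPD1 and HSPE1, and the rises included HSPA1B, HSPA6, DNAJB9, DNAJC3, DNAJC6, DNAJC18 and DNAJC22. In EV, 44 of 64 tested members passed an adjusted p of 0.05 (edgeR's quasi-likelihood test with Benjamini-Hochberg adjustment over all tested genes), against 49.1% of all tested genes and 55.9% of the protein-coding ones. Of these 21 were higher and 23 lower with the drug, where 26.1% and 22.9% of all genes were higher and lower. In WT the count was again 44, with 21 higher and 23 lower, against 49% of all and 54.7% of protein-coding genes (26.3% of all higher, 22.7% lower). In MUT it was 48, with 20 higher and 28 lower, against 56.3% of all and 61.9% of protein-coding genes (30.4% of all higher, 25.9% lower). The median log2 fold change of the members was -0.11 in EV, -0.09 in WT and -0.16 in MUT, and that of all tested genes was 0.05, 0.03 and 0.05. The replicates of a group are described as biological triplicates. The p-values rest on a spread between replicates that was estimated over all 6 groups together, not on that of the 2 groups compared alone. Fitted on those 2 groups alone, 47 of 63 members were called in EV, 53 in WT and 41 in MUT. Of all genes 55.1%, 64.8% and 46.9% were called, so the order of the lines depends on the fit.

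**Figure D1:**
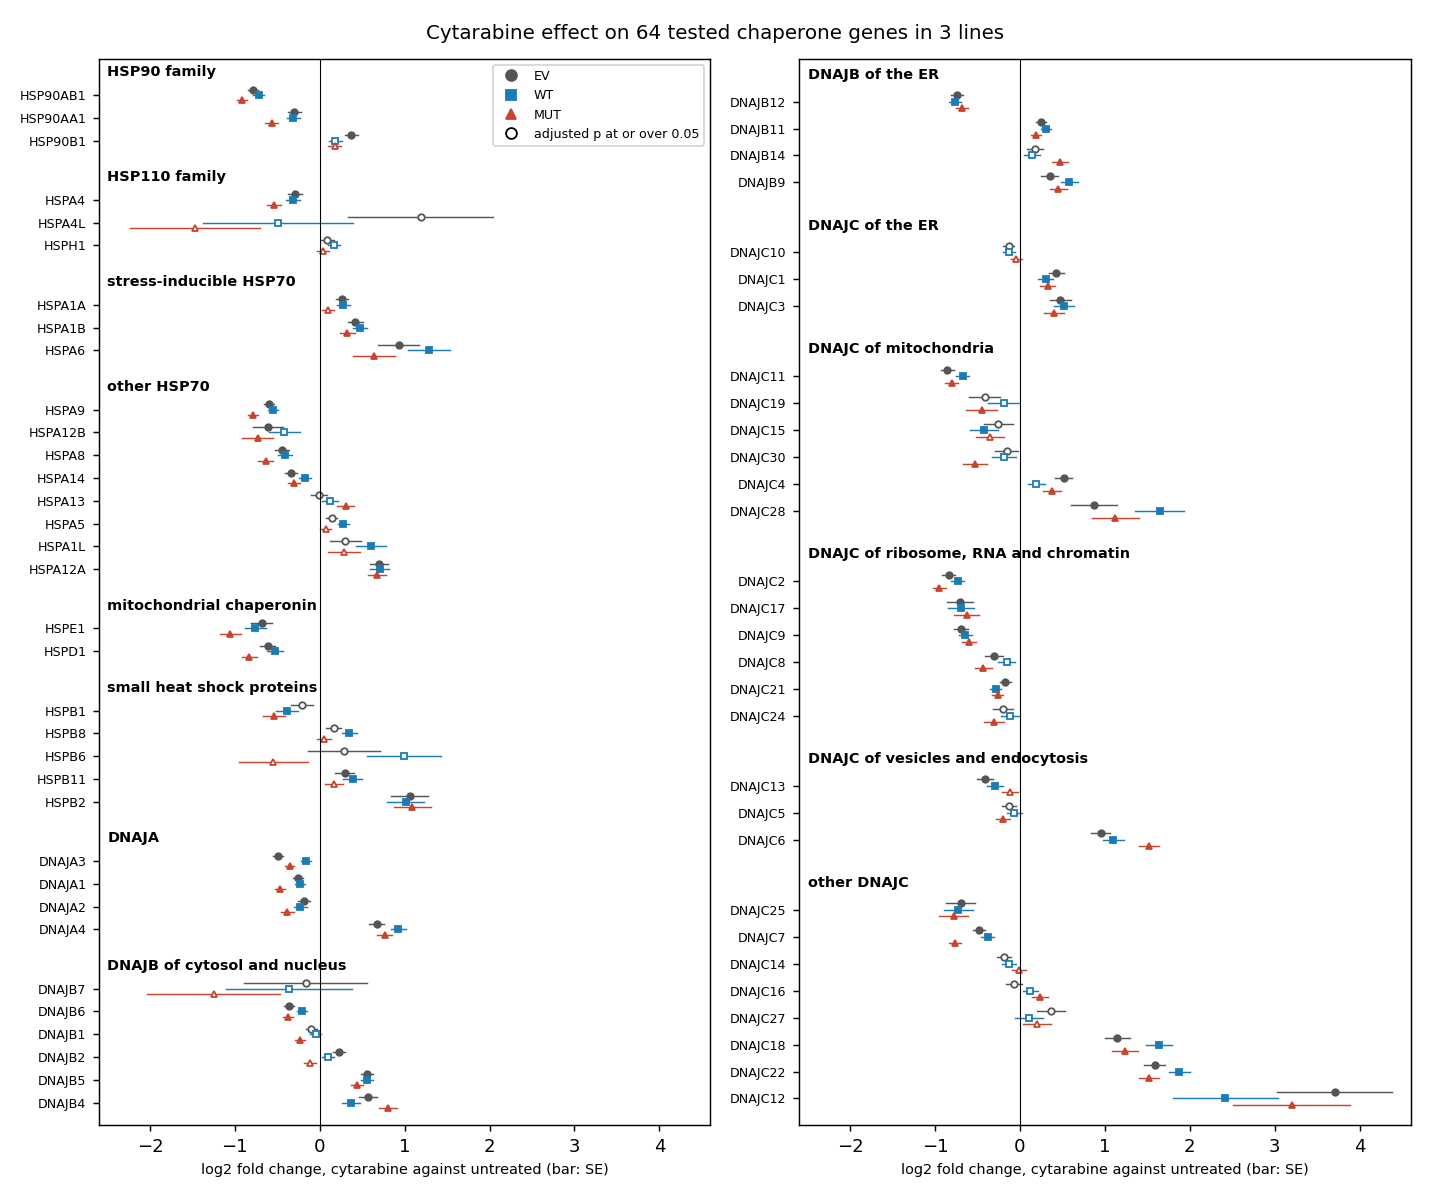
Log2 fold change with cytarabine for the 64 tested members in EV (circles), WT (squares) and MUT (triangles), grouped by role; bars are standard errors and open symbols have an adjusted p at or over 0.05. The 2 chaperonin genes and all 6 genes of the ribosome, RNA and chromatin group lie left of 0 in each line. DNAJC12, which entered the test only through the treated libraries, lies farthest right in each.

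The direction was shared by the lines for most members. In all 3 lines 16 members were higher (25% of the 64, against 18.9% of all tested genes) and 20 were lower (31.2%, against 16.4%). A further 21 passed the threshold in 1 or 2 lines in a single direction. None was higher in 1 line and lower in another, which held for 0.291% of all genes. The 7 that passed in no line were HSPH1, HSPA4L, HSPB6, DNAJB7, DNAJC10, DNAJC14 and DNAJC27. Some calls were lost in at least 1 alternative setting other than the minimum fold. In EV these were DNAJA2, DNAJB2, DNAJC21, DNAJC28, DNAJC8, HSPA12B, HSPA1A, HSPA4 and HSPB11, in WT DNAJA2, DNAJA3, DNAJB6, DNAJC13, DNAJC15, HSPA14 and HSPB1, and in MUT DNAJB1, DNAJB11, DNAJC16, DNAJC19, DNAJC24, DNAJC3, DNAJC5, HSPA13 and HSPA6.

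Level and direction went together, among the members and among all genes. The 20 members lower in all lines had a median of 57.1 CPM per kb and a range of 2.66 to 1047, and the 16 higher in all lines had a median of 8.96 and a range of 0.582 to 94.3. The value of 0.582 is that of DNAJC12, whose rise was fixed by the filter and is no support here. The next lowest was HSPA6 with 1.02. DNAJC12 is also among the less abundant members with higher calls below. Split at the members' median of 24.3 CPM per kb, the 31 more abundant members gave 7 higher and 17 lower calls in EV, 7 and 17 in WT, and 5 and 20 in MUT. Among all genes over that level 12.4%, 13.2% and 11.2% were higher and 54.1%, 53% and 63.9% lower. The median fold changes were nearly alike, at -0.25, -0.17 and -0.37 for the members and -0.26, -0.24 and -0.36 for all such genes in EV, WT and MUT. The 32 less abundant members gave 13, 13 and 15 higher and 6, 6 and 8 lower calls, while 32%, 31.9% and 38% of all genes at or under the level were higher and 17.4%, 17% and 18% lower. Their medians were 0.29, 0.13 and 0.22, against 0.14, 0.12 and 0.20 for all such genes. The split used the 15573 tested genes with a transcript length, 63 members among them.

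**Figure D2:**
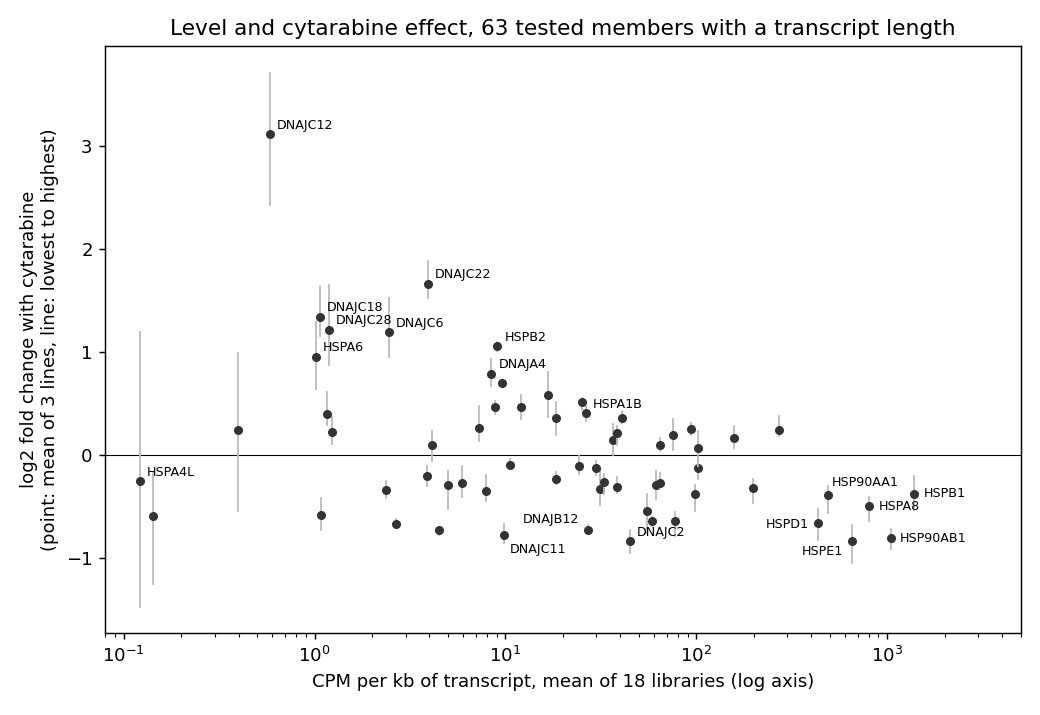
Mean level over 18 libraries in CPM per kb of transcript (log axis) against the log2 fold change with cytarabine, 1 point per member, drawn at the mean of the 3 lines with a line from the lowest to the highest. The most abundant members, HSPB1 and HSP90AB1 with 1389 and 1047 CPM per kb, lie below 0, and the points over 1 belong to members at or under the 9.04 CPM per kb of HSPB2. The highest point is DNAJC12, which entered the test only through the treated libraries.

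Of the HSP90 genes, the cytosolic pair fell in all lines and the ER form did not. HSP90AB1, the constitutive cytosolic HSP90 (chromosome 6, 44246166 to 44253889, plus strand), had 3519, 3597 and 3589 CPM in the untreated EV libraries and 1929, 2155 and 2119 with cytarabine. In WT the values were 3215, 3134 and 3191 untreated and 1933, 1992 and 1864 treated, and in MUT 3351, 3372 and 3675 and 1712, 1873 and 1923. Every treated library was far below every untreated one, whichever the line. The log2 fold changes were -0.79 (SE 0.062, adjusted p 7.09e-09), -0.72 (SE 0.0619, adjusted p 2.03e-08) and -0.92 (SE 0.0621, adjusted p 6.54e-10) in EV, WT and MUT. HSP90AA1, the stress-responsive cytosolic HSP90 (chromosome 14, 102080738 to 102139700, minus strand, overlapping WDR20), fell less. EV levels dropped from 1950 ± 23.5 to 1583 ± 141 CPM, and levels went from 1492 ± 60.0 to 1201 ± 19.5 in WT and from 1925 ± 232 to 1302 ± 35.9 in MUT. Its log2 fold changes were -0.30, -0.31 and -0.56, with adjusted p of at most 0.0030 in edgeR's test.

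HSP90B1, the HSP90 of the ER, went the other way. Its treated EV libraries held 900.1, 781 and 899 CPM and its untreated ones 673, 657 and 662, without overlap, which is 0.37 on the log2 scale (SE 0.0772, adjusted p 5.08e-04). In WT and MUT the fold changes of 0.18 and 0.18 missed the threshold, with adjusted p of 0.0544 and 0.056 in edgeR's test, and several other settings called them. The summed HSP90 signal of the 3 genes was 6182 ± 51.6 CPM untreated and 4511 ± 188 treated in EV, 5353 ± 95.1 and 3905 ± 39.6 in WT, and 6124 ± 287 and 3968 ± 132 in MUT. For all 70 members together the sums were 16812 ± 70.0 and 13544 ± 467 CPM in EV, 15560 ± 211 and 12675 ± 5.21 in WT, and 17647 ± 1244 and 12674 ± 202 in MUT. As CPM are relative to the library, a smaller share of the RNA and fewer molecules per cell cannot be told apart.

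Among the HSP70 genes, the housekeeping forms of cytosol and mitochondria fell. HSPA8, the constitutive cytosolic HSP70, which also strips clathrin from vesicles, held 2141, 2134 and 2116 CPM in untreated and 1399, 1746 and 1562 in treated EV libraries. It held 2105, 1926 and 1975 and 1489, 1570 and 1457 in WT, and 1982, 2359 and 2519 and 1410, 1513 and 1484 in MUT. Treated libraries were below untreated ones within each line, at log2 fold changes of -0.44, -0.41 and -0.64 (adjusted p of at most 4.05e-04). HSPA9, the mitochondrial HSP70 that pulls proteins through the import channel, fell from 399.6 ± 2.46 to 265 ± 4.43 CPM in EV, from 372 ± 10.9 to 253 ± 3.46 in WT and from 474 ± 32 to 275 ± 11.1 in MUT. Its fold changes of -0.59, -0.55 and -0.79 had adjusted p of at most 3.00e-07. HSPA14, which works with DNAJC2 on nascent chains at the ribosome, fell by smaller amounts, -0.33, -0.17 and -0.30 on the log2 scale, and the WT call was lost under some settings. HSPA12A, a distant HSP70 relative, rose in all lines by 0.70, 0.71 and 0.67, from 45.1 ± 5.88 to 73.2 ± 3.05 CPM in EV. HSPA12B fell in EV (-0.61) and MUT (-0.73), and its WT value of -0.42 did not pass.

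HSPA5 (BiP), the HSP70 of the ER lumen and a standard readout of the unfolded protein response, moved little. Its libraries held 629, 630.0 and 623 CPM untreated and 654, 717 and 706 treated in EV, 575, 578 and 587 and 721, 678 and 707 in WT, and 501, 521 and 597 and 551, 574 and 574 in MUT. Only the WT rise passed the threshold, with 0.28 on the log2 scale (SE 0.0644, adjusted p 0.00144). The 95% intervals of the EV and MUT changes were 0.01 to 0.28 and -0.06 to 0.20. HSPA13, a microsomal HSP70, rose in MUT alone by the threshold, at 0.30, beside -0.01 in EV and 0.12 in WT.

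The stress-inducible HSP70 genes rose, by small amounts in the abundant pair. HSPA1A (chromosome 6, 31815464 to 31817947, plus strand) had 91.5, 94.5 and 81.5 CPM untreated and 114, 108 and 99.2 treated in EV, 86, 82.5 and 83.7 and 97.5, 98.6 and 109.9 in WT, and 78.6, 84.2 and 82.1 and 92.1, 82.9 and 86.4 in MUT. The groups were apart in EV and WT and overlapped in MUT. Its fold changes were 0.26 (adjusted p 0.00571), 0.28 (adjusted p 0.00355) and 0.09 (adjusted p 0.285). Its neighbour HSPA1B encodes a nearly identical protein (chromosome 6, 31827735 to 31830256, plus strand) and rose as well. In EV the mean moved from 60.2 ± 0.959 to 80.5 ± 6.09 CPM, and it moved from 54 ± 2.96 to 74.9 ± 4.03 in WT and 56.8 ± 6.49 to 71.1 ± 6.6 in MUT, or by 0.42, 0.47 and 0.32 on the log2 scale. Since reads can be shared between the pair, their sum is safer. It was 149 ± 6.41 and 187 ± 12.7 CPM in EV, 138 ± 1.58 and 177 ± 9.45 in WT, and 138 ± 8.82 and 158 ± 10.7 in MUT.

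HSPA6 is near silent in most unstressed cells and strongly inducible by heat. Its untreated libraries held 1.46, 2.28 and 1.72 CPM in EV, 1.37, 1.27 and 1.59 in WT and 1.4, 1.38 and 2.11 in MUT, and its treated libraries 3.13, 4.56 and 2.82, 3.8, 3.4 and 3.14 and 2.37, 2.39 and 2.88. Treated libraries were the higher ones in each line, with 4.56 CPM as the highest. The fold changes were 0.93 (SE 0.24, adjusted p 0.00326), 1.29 (SE 0.243, adjusted p 2.05e-04) and 0.64 (SE 0.243, adjusted p 0.0315), and the MUT call was lost in several settings, among them without treated MUT replicate 3 and without untreated MUT replicate 1 or 2. The exact heat shock element searched for is thus present in HSPA6, which rose, and in 5 members that fell in all lines. These are HSP90AA1, HSP90AB1, HSPA8, HSPD1 and DNAJB6. The search allowed no mismatch, and the promoters of HSPA1A, HSPA1B and DNAJB1 were searched without a match. Less exact elements were not searched, so members beyond these 6 may carry one.

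Of the HSP110 exchange factors, HSPA4 fell in all lines and HSPH1 did not pass in any. The EV call of HSPA4 was lost without treated EV replicate 1. Its fold changes were -0.29, -0.32 and -0.54, for example from 606 ± 70.0 to 416 ± 14 CPM in MUT. HSPH1, an HSF1-responsive gene, had log2 changes of 0.09 (95% interval -0.06 to 0.24), 0.17 (0.01 to 0.32) and 0.04 (-0.11 to 0.19). HSPA4L stood at or under 6.73 CPM with replicates far apart, such as 1.91, 6.73 and 0.514 in untreated MUT.

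The mitochondrial chaperonin fell as a pair. HSPD1, the large ring subunit (chromosome 2, 197486581 to 197516738, minus strand), held 1191, 1164 and 1150 CPM untreated and 661, 853 and 775 treated in EV, 1059, 1016 and 1024 and 718, 741 and 689 in WT, and 1187, 1390 and 1578 and 741, 811 and 788 in MUT. HSPE1, its lid, lies head to head with it on the plus strand (197499994 to 197503458) and held 419, 407 and 375 and 299, 198 and 251 in EV, 426, 446 and 442 and 250.3, 235 and 293 in WT, and 633, 451 and 603 and 273, 265 and 276 in MUT. No treated library of either gene reached an untreated one of its line. The fold changes were -0.61, -0.53 and -0.83 for HSPD1 (adjusted p of at most 7.84e-05) and -0.68, -0.76 and -1.05 for HSPE1 (adjusted p of at most 1.64e-04). The 2 genes overlap each other, so that reads of one could be counted for the other.

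**Figure D3:**
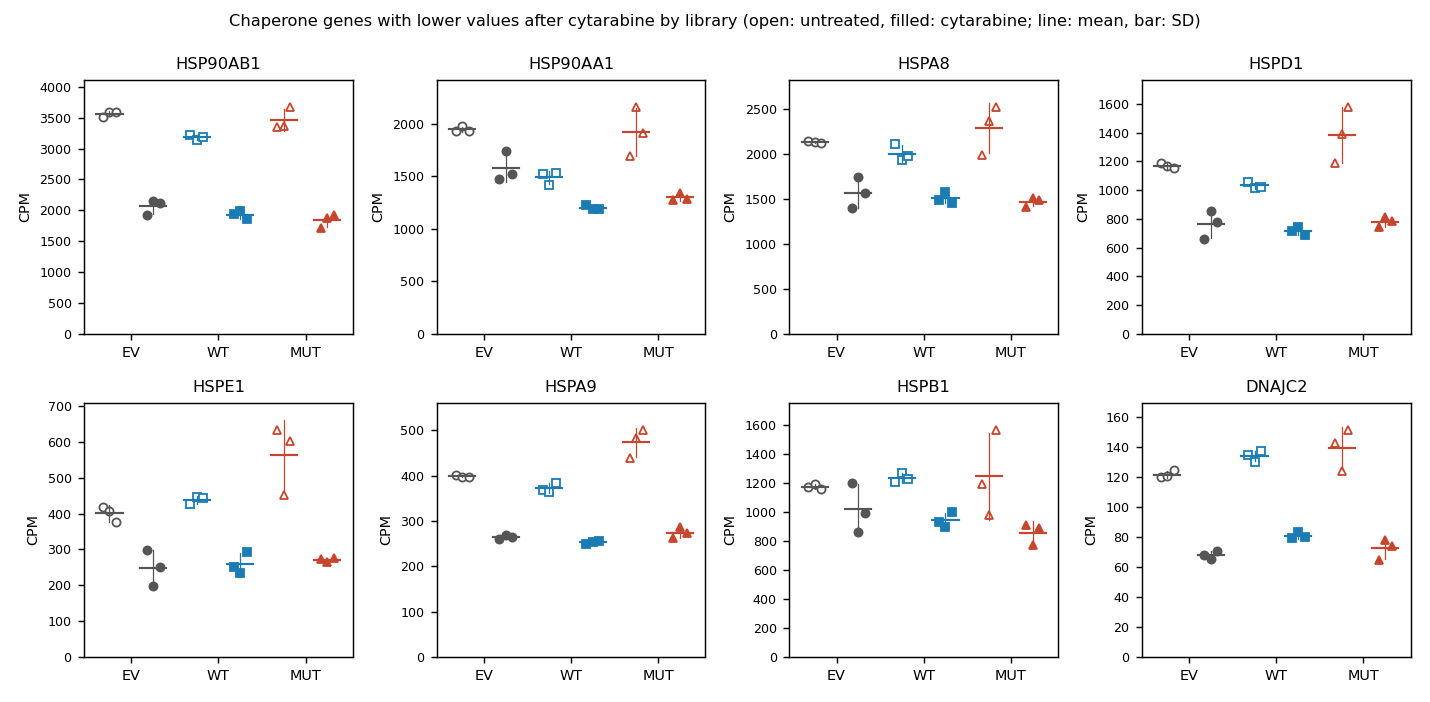
CPM by library (open symbols untreated, filled symbols cytarabine; line mean, bar SD, n = 3) for HSP90AB1, HSP90AA1, HSPA8, HSPD1, HSPE1, HSPA9, HSPB1 and DNAJC2 in EV, WT and MUT. Filled symbols lie below the open ones of the same line in every panel except HSPB1, where the EV libraries overlap; untreated HSP90AB1 runs from 3134 to 3675 CPM and treated HSP90AB1 from 1712 to 2155.

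The small heat shock proteins did not move together. HSPB1, the most abundant member per kb (chromosome 7, 76302544 to 76304296, plus strand), held 1175, 1192 and 1162 CPM untreated and 1204, 859 and 991 treated in EV, with overlap and an uncalled change of -0.21. It fell in WT at -0.39 (adjusted p 0.0173) from 1205, 1270 and 1226 to 932, 898 and 1000 CPM and in MUT at -0.54 (adjusted p 0.00151) from 1192, 979 and 1567 to 914, 770.1 and 892. The WT call was lost without treated WT replicate 1, treated replicate 2 or untreated replicate 2, and leaving out treated EV replicate 1, the highest, gave a call in EV. HSPB2, a muscle-type small heat shock protein (chromosome 11, 111912242 to 111914094, plus strand), rose in each line. EV means moved from 5.75 ± 0.939 to 11.9 ± 2.37 CPM, others from 4.39 ± 1.06 to 8.82 ± 1.01 in WT and 4.73 ± 1.77 to 10.1 ± 0.959 in MUT, at fold changes of 1.06, 1.01 and 1.09. It overlaps CRYAB on the other strand, itself a small heat shock protein outside the naming rule, which rose by 1.11, 0.56 and 0.59. Whether reads of CRYAB were counted for HSPB2 was not tested. HSPB8, which works with BAG3 in selective autophagy, rose in WT (0.35), beside 0.17 in EV and 0.05 in MUT. HSPB11, a subunit of the ciliary transport complex and now called IFT25, rose in EV (0.29) and WT (0.39), with 0.16 in MUT.

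The class A and B J-domain proteins split by gene. In the DNAJA group 3 of 4 fell and DNAJA4 rose in each line. DNAJA1, the main cytosolic partner of HSPA8, held 509, 530.1 and 522 and 437, 449 and 425 CPM in EV, 490.1, 472 and 482 and 401, 416 and 413 in WT, and 495, 519.8 and 578 and 378, 392 and 380.0 in MUT. Its treated libraries were lower in each line, at fold changes of -0.25, -0.23 and -0.47. DNAJA3, the mitochondrial J protein, fell by 0.49, 0.16 and 0.36, and DNAJA2 at -0.18, -0.23 and -0.38. DNAJA4 rose by 0.67, 0.93 and 0.77, from 16.9, 15.8 and 18 to 28.8, 32.5 and 35.2 CPM in WT, where the change was greatest.

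Of the 6 tested DNAJB genes of cytosol and nucleus, DNAJB4 and DNAJB5 rose in all lines and DNAJB6 fell in all. DNAJB1, the heat-inducible HSP40, held 246, 234 and 240.0 and 210.2, 235 and 227 CPM in EV, 238, 228 and 226 and 219, 220.5 and 229 in WT, and 238, 245 and 251 and 211, 194 and 221 in MUT. Only MUT was called, and lower, at -0.23 (adjusted p 0.0038), beside -0.10 and -0.05. This call was lost in the fit of the MUT groups alone. DNAJB4 rose by 0.57, 0.37 and 0.80, and DNAJB5 by 0.55, 0.56 and 0.44. DNAJB6, which keeps polyglutamine proteins from aggregating, fell by 0.36, 0.21 and 0.37.

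Of the 4 DNAJB genes of the ER, MUT had 3 higher calls and the other lines had 2 each, and 1 was lower in each line. The ER group of DNAJC genes held only DNAJC1, DNAJC3 and DNAJC10. In this group 2 of 3 were higher in each line and none lower, where 26.1%, 26.3% and 30.4% of all genes were higher. It is not a full list of ER J proteins, so this count covers these 3 genes only. DNAJC18, an ER-membrane J protein that rose in all lines, and DNAJC25, which fell in all, were placed among the 8 other DNAJC genes. Those 8 gave 3 higher and 2 lower calls in EV, the same in WT, and 4 and 2 in MUT. DNAJB9 (ERdj4), a target of XBP1 that binds misfolded ER proteins, held 24.2, 25.2 and 25.6 CPM untreated and 29.1, 34.6 and 32 treated in EV, 24.6, 22 and 22.6 and 36, 31.4 and 36.1 in WT, and 24.3, 21.2 and 29.2 and 32.4, 36.1 and 34.1 in MUT. DNAJC3 (p58IPK), an ER J protein and inhibitor of the kinase PERK, held 41, 41.7 and 39.6 and 44.2, 69.5 and 57 in EV, 33.5, 36 and 38.9 and 48.8, 54.4 and 51.9 in WT, and 41.3, 53.1 and 50.5 and 66.5, 62 and 62.4 in MUT. Treated libraries were above untreated ones of the same line for both genes. The fold changes were 0.35, 0.58 and 0.45 for DNAJB9 (adjusted p of at most 0.00763) and 0.48, 0.52 and 0.40 for DNAJC3 (adjusted p of at most 0.00714). DNAJB11 (ERdj3) rose by 0.25, 0.31 and 0.19, and DNAJC1 by 0.43, 0.31 and 0.33. DNAJC10 (ERdj5), a disulphide reductase, did not pass, at -0.13, -0.13 and -0.04. Of the membrane proteins whose J domain faces the cytosol, DNAJB12 fell by 0.74, 0.77 and 0.68, while DNAJB14 was called in MUT, higher, at 0.47 beside 0.18 and 0.14.

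The J proteins of ribosome, RNA and chromatin gave no rise. Of these 6 genes 5 fell in EV, 4 in WT and 6 in MUT, where 22.9%, 22.7% and 25.9% of all genes were lower, and the group's median fold changes were -0.50, -0.46 and -0.51. DNAJC2, the ribosome-bound J protein, held 119.8, 121 and 124 CPM untreated and 67.8, 65.5 and 70.9 treated in EV, 135, 130.2 and 137 and 79, 83.2 and 79.6 in WT, and 143, 124 and 151 and 64.7, 77.9 and 74.2 in MUT. Treated and untreated libraries were far apart, at fold changes of -0.84, -0.73 and -0.95 (adjusted p of at most 2.21e-07). DNAJC9, a chaperone of histones H3 and H4 that supplies them to replicating chromatin, held 159, 156 and 162 and 100.4, 93.5 and 101 in EV, 167, 177 and 172 and 108, 107 and 115 in WT, and 170.2, 137 and 180.3 and 105, 107 and 109 in MUT. It was lower in every treated library, at log2 changes of -0.69, -0.64 and -0.60 (adjusted p of at most 2.51e-06). DNAJC17, which takes part in splicing, fell by 0.70, 0.69 and 0.63, and DNAJC21, which serves ribosome assembly, at -0.17, -0.28 and -0.26. DNAJC8 of the spliceosome fell in EV (-0.30) and MUT (-0.43), and DNAJC24 of diphthamide synthesis in MUT (-0.30).

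Mitochondrial DNAJC genes were mixed. DNAJC11, part of the complex that shapes the inner membrane, fell from 42.9, 42.1 and 42.5 to 24.3, 22.5 and 23.7 CPM in EV, where its change of -0.85 was among the 6 largest called changes above a mean log2 CPM of 1, and at -0.67 and -0.80 in WT and MUT. DNAJC15 fell in WT (-0.42), and DNAJC19 and DNAJC30 in MUT (-0.45 and -0.52). DNAJC4 rose in EV (0.51) and MUT (0.38). DNAJC28 rose in all lines by 0.88, 1.64 and 1.13, at group means of 0.724 to 2.56 CPM.

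DNAJC22, DNAJC18 and DNAJC6 rose by over 1 on the log2 scale in at least 2 lines. DNAJC22, a membrane J protein (chromosome 12, 49346917 to 49357547, plus strand), held 8.59, 7.19 and 8.3 CPM untreated and 22.5, 27.3 and 22.8 treated in EV, 7.6, 5.82 and 5.88 and 24.3, 22.2 and 24.8 in WT, and 9.63, 12.3 and 11 and 33.9, 29.4 and 30.8 in MUT. DNAJC18, an ER-membrane J protein, held 3.45, 3.21 and 3.26 and 6.26, 8.05 and 7.74, 2.26, 3.12 and 3.08 and 8.44, 8.97 and 8.85, and 2.66, 3.14 and 3.48 and 7.25, 7.42 and 7.23 in the same order. For both genes every treated library was well above every untreated one of its line. The fold changes were 1.59, 1.88 and 1.52 for DNAJC22 (adjusted p of at most 5.75e-09) and 1.15, 1.64 and 1.24 for DNAJC18 (adjusted p of at most 4.21e-06). DNAJC6 (auxilin), which recruits HSPA8 to clathrin-coated vesicles, rose from 11.7, 13.4 and 13.3 to 23, 25 and 26.3 CPM in EV, 5.69, 6.14 and 6.49 to 14.1, 12.4 and 12.7 in WT and 9.43, 7.92 and 6.22 to 22.2, 23.4 and 22.4 in MUT. Its fold changes were 0.95, 1.10 and 1.52, while HSPA8 itself fell.

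DNAJC12, a partner of the aromatic amino acid hydroxylases, had 0 to 0.294 CPM in the untreated and 0.725 to 2.10 in the treated libraries. It is counted among the 16 members higher in all lines, but it entered the test only because of the treated libraries. DNAJC25 fell by 0.70, 0.72 and 0.78, and shares its position with a read-through transcript. DNAJC7, a cytosolic J protein that works with both HSP70 and HSP90, fell by 0.48, 0.38 and 0.76. DNAJC13, which acts on endosomes, fell in EV (-0.41) and WT (-0.29).

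**Figure D4:**
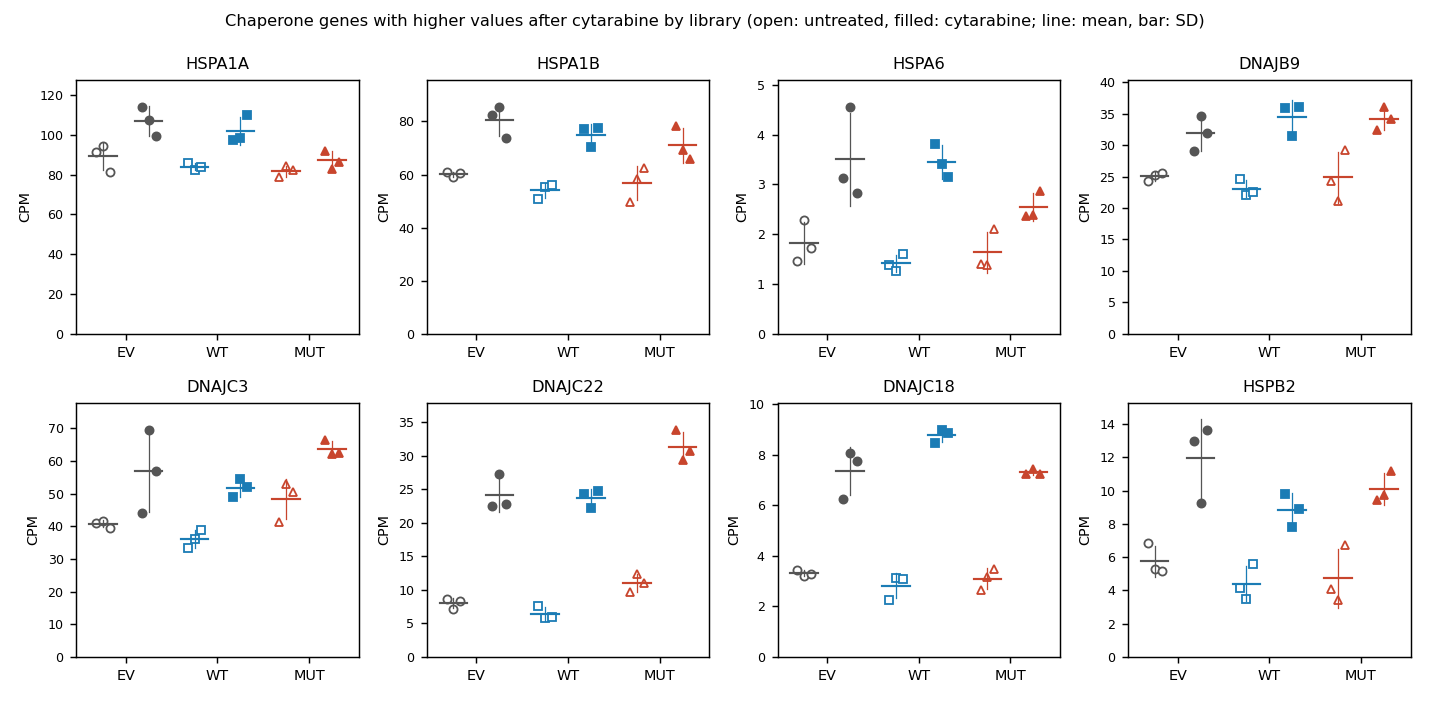
CPM by library (open symbols untreated, filled symbols cytarabine; line mean, bar SD, n = 3) for HSPA1A, HSPA1B, HSPA6, DNAJB9, DNAJC3, DNAJC22, DNAJC18 and HSPB2 in EV, WT and MUT. Filled symbols lie above the open ones of the same line in every panel except HSPA1A in MUT; treated DNAJC22 runs from 22.2 to 33.9 CPM and untreated DNAJC22 from 5.82 to 12.3.

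Genes that work with the members were read from 7 lists, which overlap one another, and of which 1 includes HSPA4 and HSPH1. Their counts stand against 26.1%, 26.3% and 30.4% of all genes higher and 22.9%, 22.7% and 25.9% lower in EV, WT and MUT, and against medians of 0.05, 0.03 and 0.05. The lists were not matched for level, and of all genes over 24.3 CPM per kb 54.1%, 53% and 63.9% were lower. The cytosolic chaperonin TRiC with prefoldin, which folds actin and tubulin, fell most uniformly, with 12 of 14 lower in EV, 13 in WT and 14 in MUT, none higher and medians of -0.50, -0.49 and -0.72. CCT5 fell by 0.68, 0.68 and 0.92 and PFDN2 by 0.73, 0.57 and 0.88 on the log2 scale. In the list of mitochondrial quality control genes 12, 10 and 13 of 15 were lower and 0, 2 and 1 higher, and GRPEL1, the exchange factor of HSPA9, fell by 0.71, 0.54 and 0.84. Of 18 cochaperones of HSP90 10, 8 and 15 were lower and none higher, with PTGES3 (p23) falling by 0.54, 0.48 and 0.66 and TTC4 by 0.66, 0.39 and 0.67. Of 19 HSP70 cochaperones and exchange factors 11, 9 and 12 were lower and 0, 1 and 1 higher. HSPBP1 fell by 1.03, 1.08 and 1.41 and BAG1 by 0.79, 0.63 and 0.85.

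HSF1 itself fell, from 300.5 ± 4.15 to 236 ± 9.86 CPM in EV, 288 ± 6.52 to 225 ± 7.31 in WT and 324 ± 22 to 228 ± 1.87 in MUT, at fold changes of -0.35, -0.35 and -0.50. HSF2 was not called in any line, at 0.03, 0.20 and 0.18. Of 17 HSF1 targets outside the members 9, 8 and 11 were lower and 2 were higher in each line. BAG3, a sensitive HSF1 target, stood at 0.00, 0.08 and -0.10 with none called, while HMOX1 rose by 0.65, 1.11 and 0.55, CRYAB rose, and TCP1 fell by 0.50, 0.39 and 0.62.

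The ER list was divided, with 9 of 26 genes higher and 4 lower in EV, 10 and 2 in WT, and 7 and 6 in MUT, where 26.1%, 26.3% and 30.4% of all genes were higher and 22.9%, 22.7% and 25.9% lower. ERO1B, an oxidase of the ER, rose by 0.98, 1.13 and 0.98 and EDEM1, which sends misfolded glycoproteins to degradation, by 0.61, 0.57 and 0.79. XBP1 rose in WT (0.34) and MUT (0.29) and stood at 0.10 in EV. ATF4, the effector of the integrated stress response, fell by 0.48, 0.28 and 0.52. DDIT3 was uncalled at 0.08, 0.60 and 0.64, with standard errors of 0.367, 0.368 and 0.371.

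The second question of the design is whether the lines differ. The comparisons of lines share their groups, so their calls are not independent of one another. Without drug, 15 members differed between MUT and EV, 9 higher and 6 lower in MUT, where 19.9% of all genes did (9.88% higher, 10% lower). Between WT and EV 6 differed, 1 higher and 5 lower in WT, against 11.7% (4.3% and 7.36%). Between MUT and WT 18 differed, 14 higher and 4 lower in MUT, against 21.2% (11.7% and 9.54%). As shares of the 64 members these are 23.4%, 9.38% and 28.1%. Those of MUT against EV and WT against EV lie near the shares of all genes. That of MUT against WT lies above the 21.2% of all genes, by its 14 higher calls and not its 4 lower ones. This excess did not hold in every setting. Without untreated WT replicate 1, 2 or 3, 10 of 64 members were called each time. Of all genes 14.9%, 15.2% and 15% were called there, which is near the share of the members. When a comparison was fitted on its own 2 groups, MUT against EV gave 2 calls of 62, against 5.83% of all genes in that fit. MUT against WT had 4 of 62, against 7.16%, and WT against EV 25 of 61, against 31.5%. The counts thus depend on which groups share a fit, for the members and for all genes. With drug, 12 members differed between MUT and EV, 3 higher and 9 lower, against 14% of all genes (6.85% and 7.13%). Between treated WT and EV 8 differed, 2 higher and 6 lower, against 16.5% (7.41% and 9.12%). Between treated MUT and WT 13 differed, 5 higher and 8 lower, against 19.8% (10.4% and 9.48%). Here the fit of the 2 groups alone gave 25 of 63, against 35.5% of all genes. Few untreated MUT calls held in every alternative other than the minimum fold. They were 2 of 15 against EV (DNAJB2 and DNAJC6) and 3 of 18 against WT (DNAJB2, DNAJC22 and HSPH1), beside 5 of 6 for WT against EV. With drug 6 of 12 held for MUT against EV, 4 of 8 for WT against EV and 8 of 13 for MUT against WT.

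HSPH1 was higher in MUT than in either other line, with and without cytarabine. Untreated libraries held 371, 396 and 399 CPM in MUT, 319.6, 322 and 319 in EV and 285, 276 and 279 in WT, and treated libraries 395, 409 and 392, 299, 386 and 338 and 320.3, 314 and 307. MUT libraries were above all others of the same treatment. The log2 differences were 0.28 from EV (SE 0.0721, adjusted p 0.00988) and 0.48 from WT (SE 0.0722, adjusted p 1.26e-04) untreated, and 0.23 (adjusted p 0.0422) and 0.35 (adjusted p 0.00193) treated. The calls against WT held in each alternative setting other than the minimum fold, and those against EV did not. DNAJC10 was also highest in MUT, with untreated means of 245 ± 5.37 CPM in MUT, 202 ± 4.23 in EV and 212 ± 7.79 in WT, and differences of 0.28, 0.21, 0.37 and 0.30 in that order of comparisons. DNAJC22 also passed in all 4, at 0.45, 0.76, 0.38 and 0.40. Of these 4 DNAJC22 calls, 3 were lost in at least 1 alternative, and the one against untreated WT held.

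DNAJB2, a J protein with ubiquitin-interacting motifs, was higher in untreated MUT. Its libraries held 345, 359 and 412 CPM there, 272, 262 and 270.3 in EV and 285, 284 and 285 in WT, with differences of 0.47 (SE 0.071, adjusted p 1.54e-04) and 0.38 (SE 0.0708, adjusted p 7.49e-04). With drug the MUT libraries overlapped those of EV and lay above those of WT, and neither comparison passed. Among the mitochondrial chaperones, untreated MUT had more HSPA9 than EV (0.25) and WT (0.35), more HSPE1 than both (0.49 and 0.36) and more HSPD1 than WT (0.42). None of these 5 calls was present with drug, and in a fit of the 2 groups alone none was called.

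DNAJC6 differed between all 3 untreated lines. The untreated means were 12.8 ± 0.934 CPM in EV, 7.86 ± 1.6 in MUT and 6.11 ± 0.402 in WT. MUT was below EV at -0.70 (adjusted p 5.64e-04), WT was below EV at -1.07 (adjusted p 8.42e-06) and MUT exceeded WT by 0.37 (adjusted p 0.0481), the last with overlapping libraries. With drug, WT stayed below EV (-0.92) and MUT above WT (0.79), while MUT and EV differed by an uncalled -0.13. DNAJB5 was lower in both DNMT3A lines than in EV, at -0.28 (MUT) and -0.39 (WT) untreated and at -0.39 and -0.39 treated. DNAJA4 was lower untreated at -0.41 in MUT and -0.47 in WT, and treated in MUT at -0.31. The calls of DNAJC6 for untreated MUT against WT, of DNAJB5 for untreated MUT against EV and of DNAJA4 for MUT against EV were each lost in at least 1 alternative.

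HSP90AA1 was lowest in WT. It was below EV at -0.39 (adjusted p 0.00209) untreated and -0.40 (adjusted p 0.00129) treated, and both calls held in each alternative other than the minimum fold. Untreated MUT exceeded WT by 0.37, and treated MUT was below EV at -0.28. HSPA5 was lower in MUT than in EV, at -0.22 untreated (adjusted p 0.0225) and -0.29 treated (adjusted p 0.00512), and lower than in treated WT at -0.31 (adjusted p 0.00192). Treated MUT also had less HSPA1A than EV (-0.30) and WT (-0.23), and less DNAJC30 (-0.66 and -0.63), whose treated libraries held 8.35, 8.14 and 8.63 CPM in MUT, 14.6, 12.5 and 12.6 in EV and 12.8, 13.5 and 12.8 in WT. The MUT calls of HSP90AA1 and HSPA1A and the untreated one of HSPA5 were lost in at least 1 alternative, while those of treated HSPA5 and of DNAJC30 held.

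**Figure D5:**
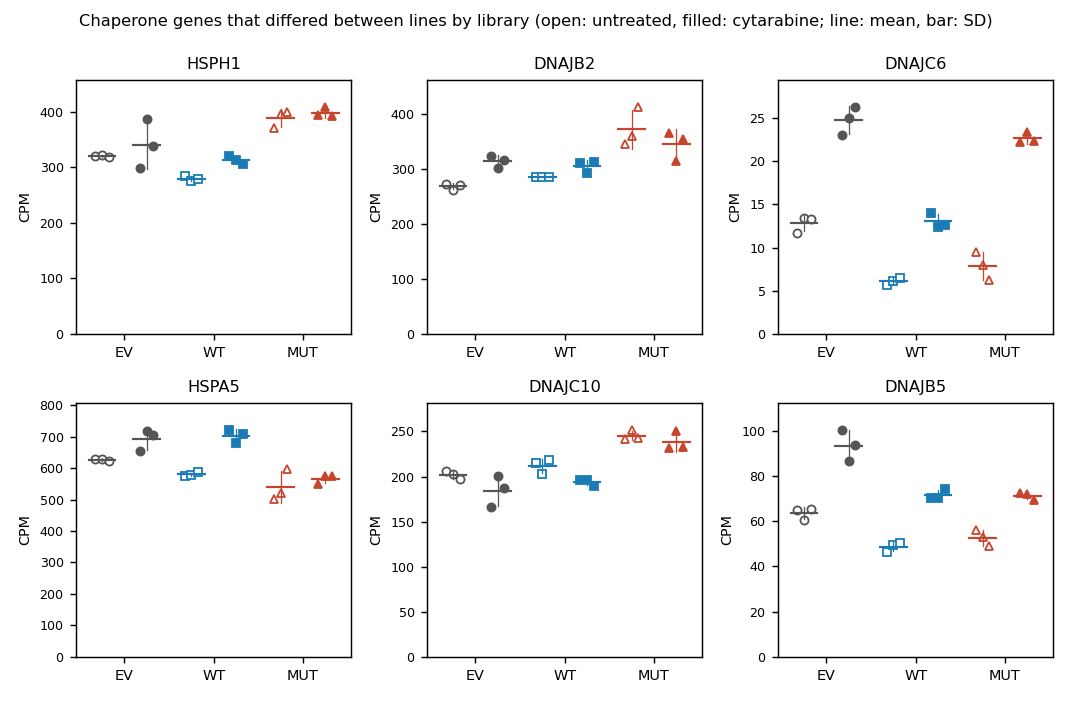
CPM by library (open symbols untreated, filled symbols cytarabine; line mean, bar SD, n = 3) for HSPH1, DNAJB2, DNAJC6, HSPA5, DNAJC10 and DNAJB5 in EV, WT and MUT. HSPH1 and DNAJC10 are highest in MUT in both treatments, DNAJB5 is highest in EV in both, and DNAJC6 is lowest in WT with drug.

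Whether cytarabine acted differently in the lines was tested on the difference of the effects. No member passed in edgeR's quasi-likelihood test with Benjamini-Hochberg adjustment, where the share of all genes was 0.214% between MUT and EV, 1% between MUT and WT and 0.285% between WT and EV. At an unadjusted p under 0.05 there were 12, 14 and 3 of 64 members, and the share of all genes at that level was not counted. DESeq2 called 3, 5 and 1 of 70 members, against 2.19%, 3.15% and 0.542% of all genes. The lowest adjusted p were 0.121 for DNAJC6 in MUT against EV, at a difference of 0.57 (95% interval 0.23 to 0.92), 0.0756 for DNAJC7 in MUT against WT, at -0.38 (-0.59 to -0.17), and 0.116 for DNAJA3 in WT against EV, at 0.33 (0.16 to 0.50). For the abundant chaperones the estimates of MUT minus EV were -0.13 for HSP90AB1 (-0.31 to 0.05), -0.20 for HSPA8 (-0.44 to 0.05), -0.21 for HSPD1 (-0.48 to 0.05) and -0.37 for HSPE1 (-0.74 to 0.00). The intervals reach from a clearly deeper fall in MUT to about none, so the size of the fall was not shown to differ between the lines and was not shown to be the same.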

How the data were processed

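Per the labels, total RNA came from Direct-zol MiniPrep columns and libraries from a NEBNext Ultra kit. CASAVA, STAR 2.6.1d and hg38 are named in the submitters' processing notes, while the counting tool, the annotation and the use of strand are not given in the sources used here. The authors deposited estimated counts per gene for 18 libraries, of which 70.4% are whole numbers, with totals of 15.4 to 21.9 M (1000 times 1000). A second table, deposited as a normalized signal, equals a factor per library times the estimated count plus 1, and was used only for its factors. No column of another sample was present.

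Estimated counts were rounded to whole numbers for edgeR 4.0.16 (R 4.3.3). filterByExpr left 18226 genes, which in practice needs about 0.519 CPM in 3 libraries. TMM factors scaled the libraries, and all 18 entered 1 quasi-likelihood fit with a coefficient per group. The 12 contrasts were tested and adjusted by Benjamini and Hochberg over all tested genes, with a threshold of 0.05. Standard errors follow from the F statistic (the size of the log2 fold change over its square root), and intervals are at 95%. Log2 CPM used a prior count of 2. Replicate pairs differed beyond sampling noise (chi-square per degree of freedom of 2.42 to 45.5), so all were kept. The procedure was tested on simulated data in which all groups had the same spread. Here the biological coefficient of variation ran from 0.0397 to 0.216 between groups. The simulation therefore cannot show how the shared fit behaves with groups this unlike.

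Members, roles and gene lists were written with earlier results of these data known, so no count over them is independent support. Any member could be named. Values by library are given for a fixed set of 17 main chaperones and, per comparison, for members among the 6 largest called changes at a mean log2 CPM of 1 or more; outside the members, a fixed few genes and up to 2 risers and 2 fallers per list were named. HSPA4L and the range of DNAJC12 were added after their values were seen. Alternatives were upper-quartile factors, DESeq2 1.42.0 and its size factors, no low-count filter, a mean of at least 50 counts, a replicate block, only the groups compared, a minimum absolute log2 fold change of 0.5, each library left out in turn and, chosen after seeing the data, the authors' factors. The motif search used RefSeq promoters of GRCh38.p14.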

Additional observations from a re-analysis of the deposited data

How the results depend on the processing

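Of 136 cytarabine calls on members over the 3 lines, 111 held in every alternative other than the minimum fold and 25 were lost in at least 1; no called change reversed its sign. For the lines, 2 of 15, 5 of 6 and 3 of 18 untreated calls (MUT against EV, WT against EV, MUT against WT) and 6 of 12, 4 of 8 and 8 of 13 treated calls held. With a minimum absolute log2 fold change of 0.5, 23 members were called in EV, 23 in WT and 27 in MUT. Of all genes 29.3%, 29.6% and 37% were called. The same limit left 2, 1 and 2 members for MUT against EV, WT against EV and MUT against WT untreated, and 1, 1 and 3 with cytarabine. The shares of all genes were 7.6%, 5.95% and 9.25% untreated, and 4.94%, 7.87% and 8.78% with cytarabine. Fitted on the compared groups alone, the cytarabine counts were 47 (EV), 53 (WT) and 41 (MUT), against 55.1%, 64.8% and 46.9% of all genes. The untreated counts were 2 (MUT against EV), 25 (WT against EV) and 4 (MUT against WT), against 5.83%, 31.5% and 7.16%. The treated MUT against WT count was 25, against 35.5%. In its fit 1 member differed in its cytarabine effect between WT and EV, against 1.58%. DESeq2 called 10 members for untreated WT against EV, against 9.14% of all genes. For the differences of effects in MUT against EV, MUT against WT and WT against EV it called 3, 5 and 1 members. The shares of all genes were 2.19%, 3.15% and 0.542%. DESeq2 size factors in edgeR and a mean of at least 50 counts each called 1 for the MUT against WT difference, DNAJC7. Of all genes 1.53% and 2.82% were called there. The cause was not tested.

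Leaving out 1 library in turn gave 40 to 43 calls in EV, 39 to 43 in WT and 43 to 51 in MUT. Of all genes 41.8% to 44.9%, 41.6% to 43.2% and 49.5% to 54.9% were called. The untreated line comparisons gave 9 to 21 (MUT against EV), 5 (WT against EV) and 10 to 19 (MUT against WT), and the treated ones 7 to 12, 4 to 7 and 8 to 12. The shares of all genes were 12% to 23.5%, 7.39% to 7.67% and 14.9% to 24.3% untreated. They were 8.25% to 11%, 9.5% to 13.3% and 12.4% to 15.4% treated. The differences of effects gave 0 to 3 (MUT against EV), 0 to 4 (MUT against WT) and 0 (WT against EV). Of all genes 0.0427% to 3.57%, 0.203% to 4.34% and 0.0642% to 0.284% were called. Counts moved by over 1.5 times without untreated EV replicate 3 (9, MUT against EV), each untreated WT replicate (10, MUT against WT), treated MUT replicates 1 and 3 (7, MUT against EV), treated EV replicate 2 (5, WT against EV), each treated WT replicate (4, WT against EV; 8 for MUT against WT without replicate 2), and untreated MUT replicates 1, 2 or 3 (3 for the MUT against EV difference without replicate 1, and 4, 2 and 1 for MUT against WT). Other scalings shifted the median of all genes by at most 0.085 on the log2 scale. Upper-quartile factors gave 26 higher and 20 lower members in EV, 23 and 20 in WT, and 21 and 25 in MUT, so that rises outnumbered falls in EV and WT. The authors' factors gave 18 higher and 28 lower members in EV, 21 and 26 in WT, and 16 and 30 in MUT. Of all genes 48.6%, 49% and 56.3% were called with upper-quartile factors and 50.5%, 50% and 56.7% with the authors' factors.

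Replicate numbers are shared across groups, but same-numbered libraries did not deviate together (Pearson's r of -0.176 to 0.352, median -0.0159, and 6 of 18 libraries most like their own number). With a replicate block the counts were 44, 45 and 48 for the cytarabine effects, 14, 6 and 15 for the untreated lines, 12, 8 and 14 for the treated lines, and 0 for each difference of effects. The shares of all genes were 49.3%, 49% and 56.3%, then 19.6%, 11.3% and 21%, and then 13.4%, 16.4% and 19.8%. Depth limits the members under the filter of about 0.519 CPM, where DNAJB7, HSPA4L, HSPB6 and DNAJC12 lie in some libraries.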
